A study of Homo sapiens with 6 samples.

Results

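Cells make cholesterol from acetyl-CoA through the mevalonate pathway, squalene and lanosterol, and make fatty acids from the same precursor. In textbook accounts both sets of enzymes are switched on by the sterol regulatory element binding proteins, the SREBPs. SCAP, the escort protein of the SREBPs, carries them from the endoplasmic reticulum to the Golgi when sterols are low, and the INSIG proteins hold SCAP back when sterols are high. Plasma cells and myeloma cells secrete large amounts of protein and maintain a wide endoplasmic reticulum membrane, which is built from these lipids.

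The 30 genes described here are 18 cholesterol synthesis enzymes, 4 genes of SREBP control, 3 sterol transport genes and 5 fatty acid synthesis genes. They were chosen by name for their place in these pathways, and 29 of them could be matched by identifier to the 63677 genes of the count table. All 29 passed the filter on low counts and were tested. The expression of ACACA, which encodes an acetyl-CoA carboxylase, was not analysed here. RNA-Seq had been done on RPMI8226, an established human multiple myeloma cell line grown as a pure culture, after 6 hr with 100 nM GST-PTR1 or with 100 nM GST, with 3 libraries of each. GST-PTR1 joins glutathione-S-transferase (GST) to PTR1, a domain of the extracellular matrix protein HAPLN1, and was made in E. coli. GST alone was the control, so both treatments contain GST and neither group is untreated cells. The data come from 1 cell line at 1 dose and 1 time.

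Libraries are named by treatment and by the number in the count table, which is 3, 4 or 5 for GST and 2, 4 or 5 for GST-PTR1. These numbers are used as names, and the labels do not say whether libraries of the same number belong together. Total counts ran from 15202503 to 44688737, and the shallowest library of each treatment was GST library 3 (15202503) and GST-PTR1 library 2 (22874133). The members together took between 0.327% and 0.487% of the counts of a library. Levels are given as CPM, the count of a gene relative to the library total, which was scaled by edgeR's TMM factor. RPKM, which also divides by the deposited exon length of the gene, is used wherever one gene is compared with another. The 8 plasma cell and myeloma markers examined, such as SDC1, CD38 and MZB1, had reads in all 6 libraries. Markers of T cells, hepatocytes, adipocytes and red cells were at 0.12 CPM or less. CD14 was between 0.22 and 0.52 CPM and CSF1R between 0.07 and 0.84 CPM, while the epithelial markers EPCAM (61.6 to 77.0 CPM) and KRT8 (1.12 to 2.32 CPM) had reads throughout.

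Of the 29 members, 3 were higher with GST-PTR1 than with GST, namely INSIG1, STARD4 and HMGCS1, and none was lower. A gene was called where its p from the quasi-likelihood test of edgeR, adjusted by Benjamini-Hochberg across the 16926 genes tested, was under 0.05. Those 3 are 10.3% of the members, beside 9.15% of all genes tested that were higher by the same rule. For lower genes the count was 0 of 29 beside 11.4% of all genes. At an unadjusted p under 0.05 there were 4 members on the higher side and 4 on the lower side. DESeq2 and limma's voom on the same counts called the same 3 members higher and 0 lower. The libraries of the treatments did not overlap for 9 members, 5 with GST-PTR1 above (19.2% of all genes) and 4 with GST-PTR1 below (21.2% of all genes). The median log2 fold change of the members was -0.06, against 0.01 for all genes tested, and 12 members had a positive and 17 a negative value. Scaled by library totals instead, the median of all genes moved by -0.20 and that of the members came to -0.25, and 7 members were then called lower.

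**Figure D1:**
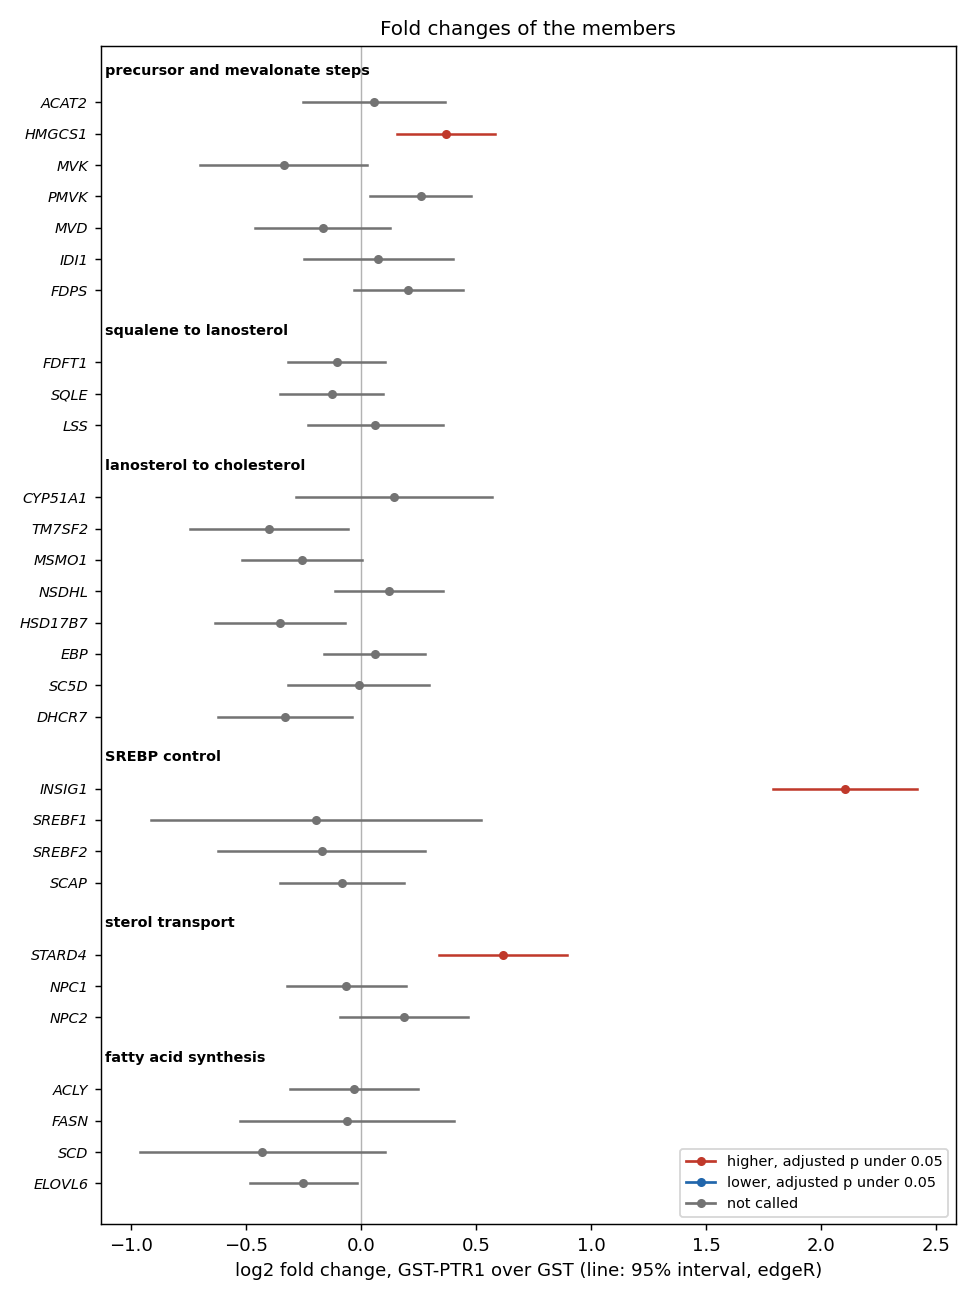
Log2 fold change of each of the 29 members (horizontal axis, GST-PTR1 over GST, edgeR) with its 95% interval, grouped by role. INSIG1 stands alone at 2.10, STARD4 (0.62) and HMGCS1 (0.37) are the other members coloured as higher, and the other 26 lie between -0.43 and 0.26.

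INSIG1 encodes the endoplasmic reticulum protein that retains the SCAP-SREBP complex and that also promotes the breakdown of the rate-limiting reductase of the mevalonate pathway. Its gene (ENSG00000186480) lies on chromosome 7 of GRCh37 from 155089486 to 155101945. Its level was 155, 114 and 112 CPM in GST libraries 3, 4 and 5, and 575, 550 and 511 CPM in GST-PTR1 libraries 2, 4 and 5. The lowest GST-PTR1 library was thus more than 3 times as high as the highest GST library. The log2 fold change was 2.10 (standard error 0.14, 95% interval 1.79 to 2.41, edgeR adjusted p = 1.86e-06), which is 4.30-fold. INSIG1 was called under all 16 other settings of the test, with log2 fold changes from 1.90 to 2.27.

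The size of this change set INSIG1 apart from the other genes of SREBP control. SREBF1 and SREBF2 encode the SREBP precursors. SREBF1 was at 393, 184 and 150 CPM with GST and at 295, 164 and 177 CPM with GST-PTR1. SREBF2 was at 580, 355 and 330 CPM with GST and at 436, 311 and 377 CPM with GST-PTR1. For both genes the treatments overlapped, and the shallowest library of each treatment was the highest. The log2 fold change was -0.19 for SREBF1 (95% interval -0.91 to 0.52, edgeR adjusted p = 0.701) and -0.17 for SREBF2 (-0.62 to 0.28, adjusted p = 0.584 from the same test). Without GST library 3 these values turned to 0.34 and 0.13, so that no direction can be given for either gene. SCAP was at 107, 90.3 and 82.7 CPM with GST and at 94.2, 77.9 and 92.0 CPM with GST-PTR1, a log2 fold change of -0.08 (95% interval -0.35 to 0.19).

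Per length of exon, INSIG1 was at 34.8 ± 6.57 RPKM with GST and 149 ± 8.84 RPKM with GST-PTR1 (SD, n = 3 each). In the GST libraries 9 members had a higher mean RPKM than INSIG1, with ACLY at 77.9 ± 7.93 RPKM as the highest. In the GST-PTR1 libraries INSIG1 was the highest member, above ACLY at 76.3 ± 9.37 RPKM. INSIG2, the paralog of INSIG1 with the same SCAP-retaining role, was at 10.0, 9.95 and 12.04 CPM with GST and at 12.2, 9.57 and 8.87 CPM with GST-PTR1. The treatments overlapped, with a log2 fold change of -0.07 (95% interval -0.42 to 0.28, edgeR adjusted p = 0.789). The RPKM of INSIG1 over that of INSIG2 was 16.7, 12.4 and 10.1 with GST and 50.9, 62.2 and 62.3 with GST-PTR1.

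**Figure D2:**
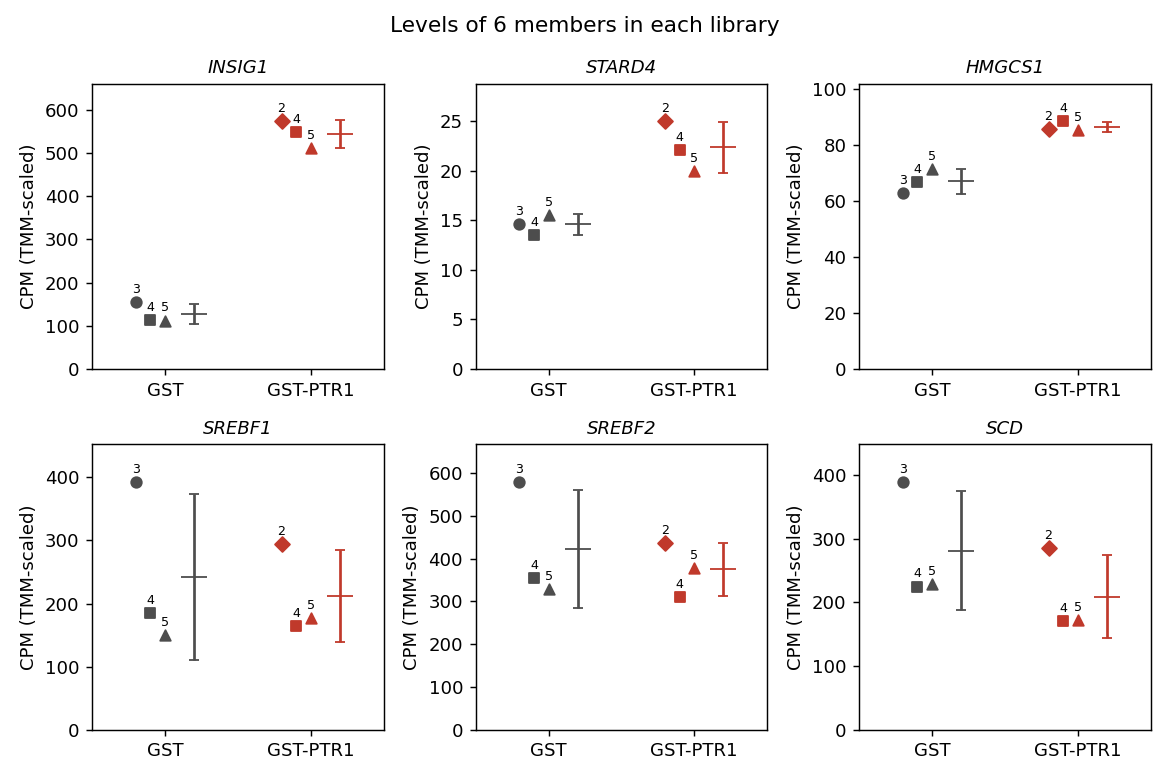
CPM on TMM-scaled totals (vertical axes, starting at 0) of 6 members in each of the 6 libraries, with library numbers beside the points and the mean ± SD of each treatment (n = 3) at their right. INSIG1, STARD4 and HMGCS1 do not overlap between treatments, while in SREBF1, SREBF2 and SCD GST library 3 and GST-PTR1 library 2 are the highest of their treatments.

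STARD4 encodes a soluble protein that moves cholesterol between membranes. The gene (ENSG00000164211) lies on chromosome 5 from 110831731 to 110848288. Its level was 14.6, 13.6 and 15.6 CPM with GST and 25.1, 22.1 and 19.97 CPM with GST-PTR1. All GST-PTR1 values lay above all GST values. The log2 fold change was 0.62 (standard error 0.13, 95% interval 0.34 to 0.90, edgeR adjusted p = 0.00621), or 1.53-fold, and the call held in all 16 other settings. At 2.57 ± 0.178 RPKM with GST, STARD4 was the second lowest member per length. NPC1 and NPC2, which pass cholesterol out of the lysosome, were not called. NPC1 was between 50.5 and 64.6 CPM with GST and between 50.1 and 58.2 CPM with GST-PTR1. NPC2 was between 59.7 and 71.8 CPM with GST and between 69.6 and 90.0 CPM with GST-PTR1. Their 95% intervals were -0.32 to 0.20 and -0.09 to 0.47 on the log2 scale, both of which span 0.

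HMGCS1, the cytosolic enzyme that makes HMG-CoA from acetoacetyl-CoA and acetyl-CoA, was the 1 enzyme among the 22 tested that was called. Of all genes tested, 9.15% were called higher and 11.4% lower. The gene (ENSG00000112972) lies on chromosome 5 from 43289497 to 43313614. Its level was 62.6, 66.8 and 71.3 CPM with GST and 85.4, 88.5 and 85.4 CPM with GST-PTR1. The treatments did not overlap, and the spread within each was small. The log2 fold change was 0.37 (standard error 0.10, 95% interval 0.16 to 0.58, edgeR adjusted p = 0.02), a 1.29-fold rise. This call was the least stable of the 3. It was lost in 7 of 16 other settings. With library totals the log2 fold change was 0.17 (edgeR adjusted p = 0.236). Without GST library 3 (adjusted p = 0.0577 from edgeR), GST library 4 (0.0732), GST-PTR1 library 2 (0.051) or GST-PTR1 library 5 (0.0709) it was 0.32, 0.37, 0.38 and 0.38. In libraries 4 and 5 alone it was 0.33 with or without the number as a block.

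**Figure D3:**
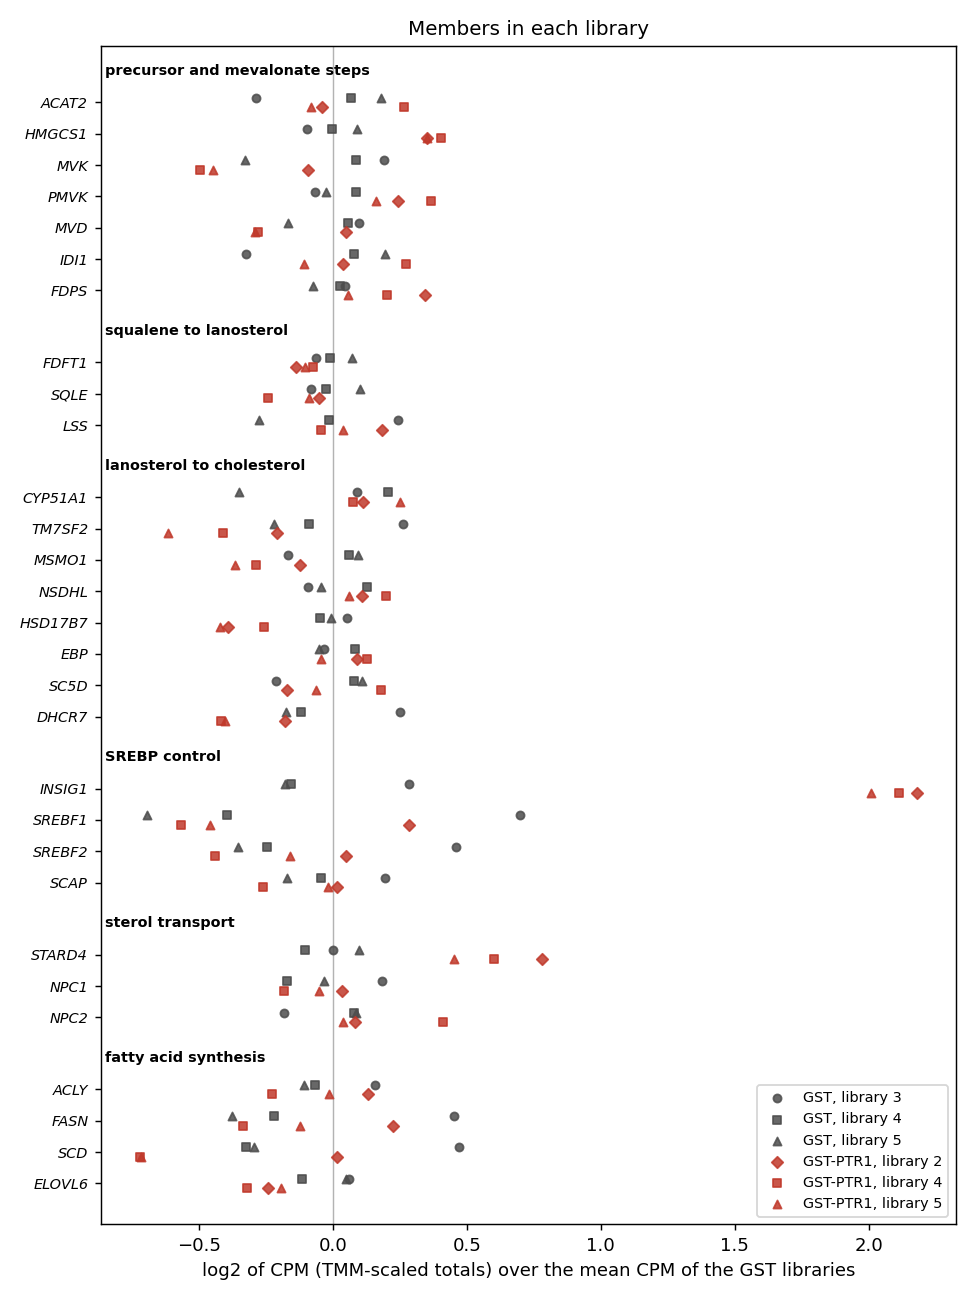
Level of each of the 29 members in each library as the log2 of its CPM over the mean CPM of the GST libraries (horizontal axis), with GST libraries in grey, GST-PTR1 libraries in red and a symbol for each library number. The red points of INSIG1 lie near 2 and those of most other members lie among or close beside the grey points.

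None of the other 6 genes of the precursor and mevalonate steps was called (beside 9.15% of all genes higher and 11.4% lower). At an unadjusted p under 0.05 there was 1, PMVK. PMVK, phosphomevalonate kinase, was at 71.6, 79.5 and 73.7 CPM with GST and at 88.8, 96.6 and 83.9 CPM with GST-PTR1. FDPS, which makes farnesyl diphosphate, was at 201, 199 and 186 CPM with GST and at 248, 225 and 203 CPM with GST-PTR1. In both genes all GST-PTR1 libraries were above all GST libraries, but by small margins. The log2 fold changes were 0.26 for PMVK (95% interval 0.04 to 0.48, edgeR adjusted p = 0.0904) and 0.21 for FDPS (-0.03 to 0.44, adjusted p = 0.194 from the same test). ACAT2, the cytosolic thiolase that makes acetoacetyl-CoA, was between 68.8 and 95.01 CPM with GST and between 79.4 and 101 CPM with GST-PTR1. IDI1, the isopentenyl diphosphate isomerase, was between 53.7 and 76.9 CPM with GST and between 62.3 and 81.1 CPM with GST-PTR1. Both overlapped widely. MVK, mevalonate kinase, had a log2 fold change of -0.34 (95% interval -0.70 to 0.03), and MVD, the decarboxylase that ends the series of mevalonate phosphates, had one of -0.17 (-0.46 to 0.13). FDPS has processed pseudogenes of near-identical sequence, so that its count may be incomplete.

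From squalene to lanosterol, none of 3 enzymes was called by edgeR, DESeq2 or voom, and none had an unadjusted p under 0.05. By the edgeR rule 9.15% of all genes were higher and 11.4% lower. FDFT1, squalene synthase, was at 230, 238 and 252 CPM with GST and at 218, 228 and 223 CPM with GST-PTR1. Its GST-PTR1 libraries were all below its GST libraries, yet the log2 fold change was only -0.11 (95% interval -0.32 to 0.11, edgeR adjusted p = 0.46). SQLE, squalene epoxidase and a rate-controlling step after the reductase, was between 97.4 and 110 CPM with GST and between 87.0 and 99.5 CPM with GST-PTR1. LSS, lanosterol synthase, was between 77.5 and 111 CPM with GST and between 91.1 and 107 CPM with GST-PTR1. For these enzymes a change of 1.5-fold (0.58 on the log2 scale) lies outside each 95% interval, the widest limits being -0.35 for SQLE and 0.36 for LSS. In the annotation 9.63% of the exon bases of LSS lie on exons of another gene on the same strand, where reads were not counted.

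From lanosterol to cholesterol, 0 of 8 enzymes passed the adjusted threshold (beside 9.15% of all genes higher and 11.4% lower), and 3 had an unadjusted p under 0.05, all 3 on the lower side. HSD17B7, the 3-keto-steroid reductase, was at 11.4, 10.6 and 10.9 CPM with GST and at 8.35, 9.16 and 8.17 CPM with GST-PTR1. DHCR7, which reduces 7-dehydrocholesterol to cholesterol, was at 308, 239 and 230 CPM with GST and at 229, 194 and 196 CPM with GST-PTR1. The treatments did not overlap in either gene, although for DHCR7 the highest GST-PTR1 library came within 2 CPM of the lowest GST library. The log2 fold changes were -0.35 for HSD17B7 (95% interval -0.63 to -0.07, edgeR adjusted p = 0.0767) and -0.33 for DHCR7 (-0.62 to -0.04, adjusted p = 0.103 from the same test). Without GST library 3 the value of DHCR7 was -0.19. HSD17B7 has a near-identical pseudogene, so its count is uncertain.

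TM7SF2, a sterol C14 reductase, was at 26.5, 20.8 and 19.0 CPM with GST and at 19.1, 16.6 and 14.4 CPM with GST-PTR1. The treatments overlapped by 1 library, and the log2 fold change was -0.40 (95% interval -0.74 to -0.06, edgeR adjusted p = 0.092). Without GST library 3 it was -0.25. MSMO1, the sterol C4 methyl oxidase, was at 36.1, 42.4 and 43.3 CPM with GST and at 37.3, 33.3 and 31.6 CPM with GST-PTR1, a log2 fold change of -0.26 (-0.52 to 0.0033, adjusted p = 0.147 from the same test). NSDHL, EBP and SC5D, which act between these enzymes, had log2 fold changes of 0.12, 0.06 and -0.01, with overlapping libraries and 95% limits between -0.32 and 0.36. CYP51A1, lanosterol 14-alpha-demethylase, was the lowest member at 0.846 ± 0.163 RPKM with GST and 0.938 ± 0.0616 RPKM with GST-PTR1. In the annotation 78.8% of its exon bases are shared with LRRD1 on the same strand, and reads there were not counted, so this level understates the gene.

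None of the 4 fatty acid synthesis genes tested was called (beside 9.15% of all genes higher and 11.4% lower). At an unadjusted p under 0.05 there was 1, ELOVL6. The fold changes of all 4 were negative, though close to 0 in ACLY and FASN, whose sign was not stable. ACLY, ATP citrate lyase, supplies cytosolic acetyl-CoA and was at 454, 388 and 377 CPM with GST and at 445, 347 and 402 CPM with GST-PTR1. FASN, fatty acid synthase, was at 661, 415 and 372 CPM with GST and at 564, 383 and 443 CPM with GST-PTR1. Both overlapped, with log2 fold changes of -0.03 (95% interval -0.31 to 0.25) and -0.06 (-0.52 to 0.40), and the sign of each turned without GST library 3 (0.06 and 0.23). ELOVL6, which elongates palmitate, was at 45.9, 40.7 and 45.6 CPM with GST and at 37.3, 35.3 and 38.6 CPM with GST-PTR1. Its treatments did not overlap, and its log2 fold change was -0.25 (-0.48 to -0.02, edgeR adjusted p = 0.115).

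SCD, the desaturase that makes oleate, had the most negative fold change of the members. It was at 390, 225 and 230 CPM with GST and at 285, 171 and 172 CPM with GST-PTR1. Libraries 4 and 5 of GST-PTR1 were below all GST libraries, while GST-PTR1 library 2 was above GST libraries 4 and 5. The log2 fold change was -0.43 (standard error 0.24, 95% interval -0.96 to 0.10, edgeR adjusted p = 0.227). Without GST-PTR1 library 2 it was -0.71 and passed the threshold (adjusted p = 0.032 from the same test), without GST library 3 it was -0.12 (adjusted p = 0.713), and in libraries 4 and 5 alone it was -0.41 (adjusted p = 0.0317). In the annotation 36.8% of the exon bases of SCD are shared with another gene on the same strand, where reads were not counted.

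The spread within a treatment was uneven among the members. In the GST libraries the highest library was 2.62 times the lowest for SREBF1, 1.78 times for FASN, 1.76 times for SREBF2 and 1.73 times for SCD, but 1.14 times for HMGCS1. GST library 3 was the highest GST library for 16 of 29 members (55.2%, and 42.2% of all genes tested), and GST-PTR1 library 2 was the highest GST-PTR1 library for 17 of 29 (58.6%, and 35.3% of all genes). Both held together for 14 members (48.3%, and 22.4% of all genes), namely ACLY, DHCR7, FASN, FDPS, INSIG1, LSS, MVD, MVK, NPC1, SCAP, SCD, SREBF1, SREBF2 and TM7SF2. These are the libraries with the lowest totals of their treatments. In the fifth of genes with the highest GC content, GST library 3 lay 0.16 and GST-PTR1 library 2 lay 0.08 above their treatment (median log2 deviation), while GST library 5 lay at -0.17 and GST-PTR1 library 4 at -0.08. The GC content of the transcript was 62.9% for SREBF1 and 65.8% for FASN, but 47.1% for SCD. The part of depth and of GC content in the spread of these members was not tested.

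Promoter sequence was read for the called members, since they moved in the same direction. RefSeq windows that run from 250 bases before to 50 bases after a start (GRCh38.p14) were at hand for 26 of the 30 members. Matches were sought on both strands to the sterol regulatory element TCACNCCAC, the CCAAT box that NF-Y binds, the E-box CACGTG and the NF-κB motif, a choice made after the values were known. None of these motifs overlaps another in the stretches printed here, which end before the first annotated start.

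INSIG1, chr7:155297628-155297775, plus strand: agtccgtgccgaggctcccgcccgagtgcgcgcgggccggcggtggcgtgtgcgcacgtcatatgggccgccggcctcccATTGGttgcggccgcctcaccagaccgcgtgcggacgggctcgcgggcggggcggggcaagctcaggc
STARD4, chr5:111512591-111512785, minus strand: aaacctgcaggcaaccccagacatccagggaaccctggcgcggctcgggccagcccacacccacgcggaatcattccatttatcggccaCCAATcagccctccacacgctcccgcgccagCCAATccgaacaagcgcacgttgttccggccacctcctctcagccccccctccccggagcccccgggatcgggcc
HMGCS1, chr5:43313513-43313662, minus strand: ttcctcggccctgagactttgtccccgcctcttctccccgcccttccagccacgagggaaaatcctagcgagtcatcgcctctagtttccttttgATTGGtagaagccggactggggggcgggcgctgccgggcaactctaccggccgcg

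Capitals mark the CCAAT box, which reads ATTGG where it lies on the other strand. INSIG1 and HMGCS1 have 1 match and STARD4 has 2, and no other motif of the search matched in these stretches. In the rest of their windows INSIG1 has an E-box and HMGCS1 an NF-κB motif. Over the whole windows the CCAAT box was found in 20 of 26 members (76.9%), beside 39.7% of the 27305 genes with a window. Most of these 20 members were not called, among them MVK, DHCR7 and SCD, so the motif does not set the called members apart. These 27305 genes were not limited to genes expressed here, so they are not a set like the members. A gene was counted if any of its windows matched. The sterol regulatory element was found in 1 of 26 members, SREBF2 (3.85%, and 1.39% of all genes). Only the spelling given above was sought, and only in these windows. An element with other letters or farther away would be missed, so members without a match cannot be said to lack one. The E-box was found in 4 members (15.4%, and 8.77% of all genes), and the NF-κB motif in 8 (30.8%, and 13.3% of all genes). A match is a run of letters and not a site shown to be bound.

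Beyond the members, 75 related genes of sterol and fatty acid metabolism were matched and 64 were tested. Of these, 9 were higher (14.1%, and 9.15% of all genes) and 8 were lower (12.5%, and 11.4% of all genes) by the same edgeR rule, and the median log2 fold change was -0.07. With library totals 6 were higher and 19 lower. Among the 7 SREBP processing genes none was called (beside 9.15% of all genes higher and 11.4% lower), and 1 had an unadjusted p under 0.05. MBTPS1 and MBTPS2, the proteases that release the active SREBP in the Golgi, had log2 fold changes of -0.14 (95% interval -0.34 to 0.07) and -0.08 (-0.32 to 0.16). INSIG1 was called higher, while the other measured genes of the same control step, INSIG2, SCAP, MBTPS1, MBTPS2, SREBF1 and SREBF2, had 95% intervals that span 0.

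Among 13 further genes of sterol and isoprenoid synthesis, 2 were higher (15.4%, and 9.15% of all genes) and 3 lower (23.1%, and 11.4% of all genes). ACSS2 and AACS, which activate acetate and acetoacetate in the cytosol, fell by 0.76 and 0.48 on the log2 scale, and FDXR (0.68) and ERG28 (0.40) rose. These 4 genes were named after their values were seen.

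Of the 21 tested related genes of fatty acid synthesis, elongation and desaturation, 3 were higher (14.3%, and 9.15% of all genes) and 4 lower (19.0%, and 11.4% of all genes). ELOVL7, an elongase of saturated long chain fatty acids, was at 0.902, 0.762 and 0.711 CPM with GST and at 3.68, 3.17 and 3.55 CPM with GST-PTR1. It was thus low in both treatments but 4.38-fold higher with GST-PTR1, a log2 fold change of 2.13 (standard error 0.22, edgeR adjusted p = 5.83e-05). ACACB, the mitochondrial acetyl-CoA carboxylase that restrains fatty acid oxidation, was at 2.65, 1.93 and 3.18 CPM with GST and at 0.898, 0.761 and 1.06 CPM with GST-PTR1. Its libraries did not overlap, and its log2 fold change was -1.51 (standard error 0.26, edgeR adjusted p = 0.00234). ELOVL5 (0.77) and ACSL1 (0.50) were the others higher, and SCD5 (-0.77), MID1IP1 (-0.52) and HACD2 (-0.50) the others lower, all of them named after their values were seen. SCD5, a second desaturase, was at 25.2, 27.2 and 28.2 CPM with GST and at 16.4, 14.04 and 17.0 CPM with GST-PTR1.

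**Figure D4:**
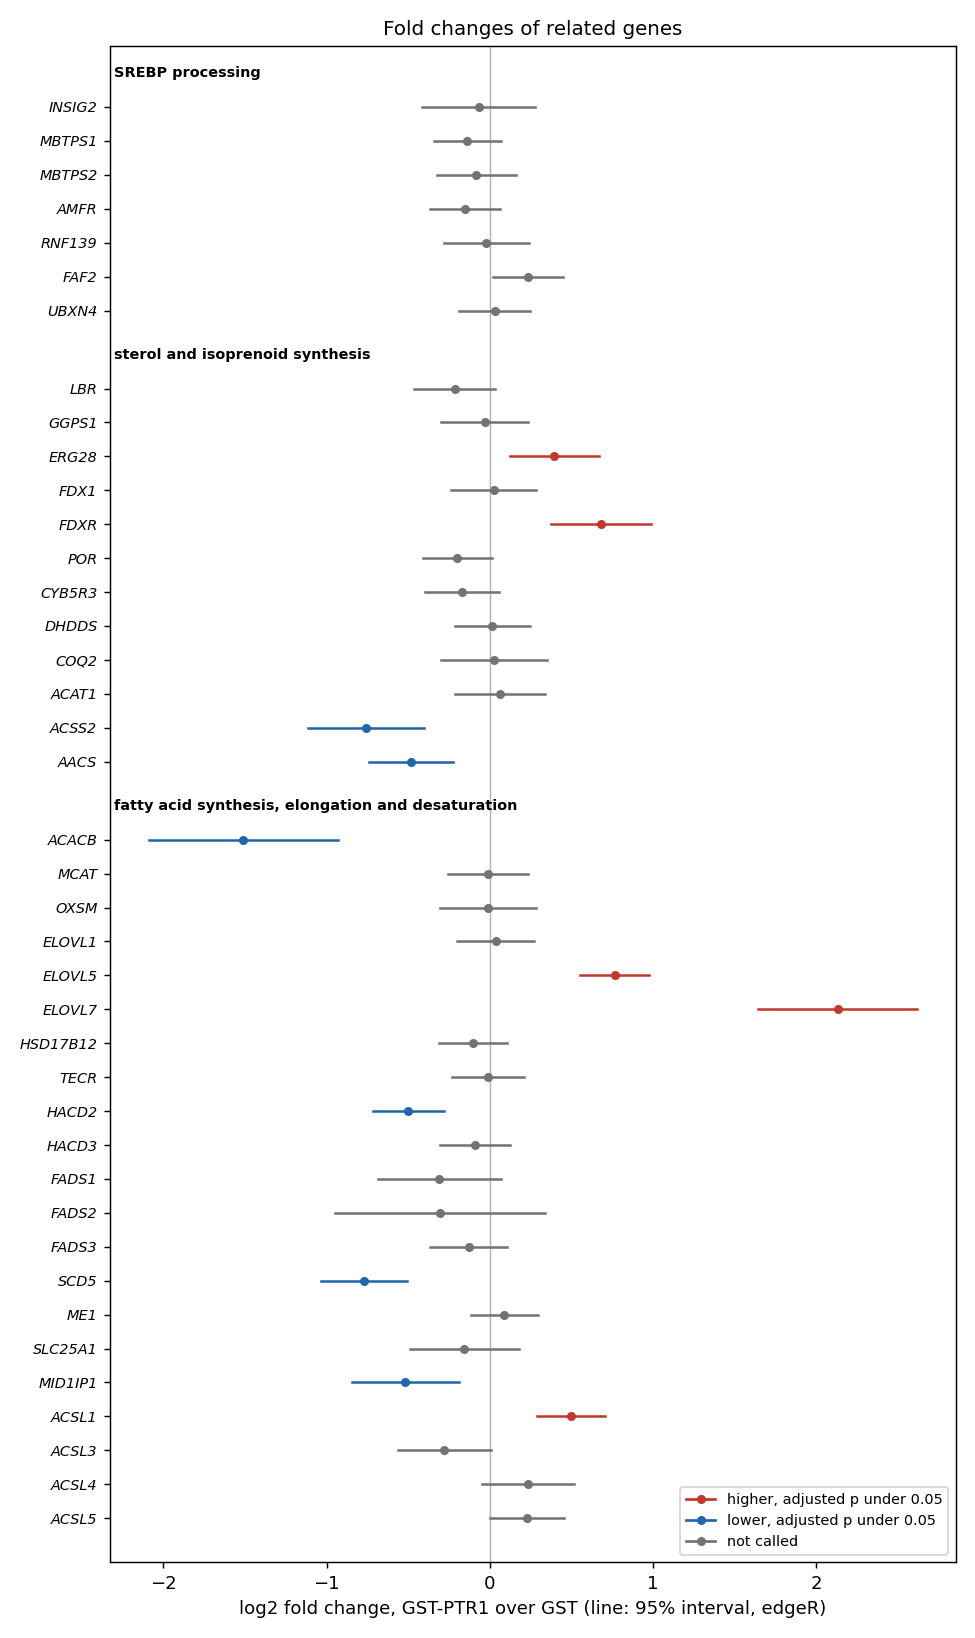
Log2 fold change (horizontal axis, GST-PTR1 over GST, edgeR) with its 95% interval for the related genes shown of SREBP processing, sterol and isoprenoid synthesis, and fatty acid synthesis. Genes called higher and lower both appear outside SREBP processing, with ELOVL7 at 2.13 and ACACB at -1.51 as the extremes.

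CH25H makes 25-hydroxycholesterol, an oxysterol that binds INSIG proteins and blocks SREBP transport. It had 2, 6 and 4 counts in GST libraries 3, 4 and 5, and 20, 33 and 15 counts in GST-PTR1 libraries 2, 4 and 5. In CPM that is 0.120, 0.241 and 0.190 against 0.898, 0.838 and 0.550, so the treatments did not overlap, at a level close to the limit of detection (3 counts). The log2 fold change was 1.97 (standard error 0.40, 95% interval 1.09 to 2.85, edgeR adjusted p = 0.00578). Of the other oxysterol and liver X receptor genes, 0 of 2 tested were called (beside 9.15% of all genes higher and 11.4% lower). At an unadjusted p under 0.05 there were also 0. Among the 14 tested genes of sterol uptake, transport, esterification and efflux 3 were higher (21.4%, and 9.15% of all genes) and none lower (11.4% of all genes, and 3 of these 14 on the lower side at an unadjusted p under 0.05). STARD5, a sterol transfer protein related to STARD4, was at 25.1, 27.5 and 21.3 CPM with GST and at 44.5, 53.4 and 45.8 CPM with GST-PTR1. Among the 6 genes of glycerolipid and phospholipid synthesis 0 were higher (beside 9.15% of all genes, and 0 at an unadjusted p under 0.05). AGPAT2 was lower (-0.59), which is 16.7% of these 6 beside 11.4% of all genes. At an unadjusted p under 0.05, 2 of the 6 were on the lower side. STARD5 and AGPAT2 were named after their values were seen.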

How the data were processed

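The authors deposited whole-number read counts per gene, made with featureCounts on exons of Ensembl release 75 (GRCh37), counted by strand, leaving out multi-mapped reads and reads on exons of more than 1 gene. The submitters' processing notes also name FastQC, Subread and limma. The aligner's version is not given in the sources used here. The replicates are described as biological, and the table's library numbers do not match their numbers, so no pairing was used. Symbols were matched by identifier for 39699 of 63677 genes. The test on these counts was that of edgeR 4.0.16 in R 4.3.3 (TMM factors, filterByExpr, glmQLFit, glmQLFTest, 16926 genes), and intervals are 95%. RPKM used the deposited exon lengths. With 3 libraries against 3 an exact permutation test cannot go below p = 0.1. Alternatives used DESeq2 1.42.0, limma 3.58.1 (voom), other scalings, filters and subsets of libraries, and a GC correction added after seeing the data. The test was first run on simulated counts with the same dispersion (spread beyond sampling noise) for every gene. That setting lacks the uneven spread of the real libraries, so it does not give the error rate here. Libraries of a treatment differed by more than sampling noise (smallest chi-square per gene 8.31). All 30 members are named. Of the related genes, INSIG2, MBTPS1, MBTPS2 and CH25H are named, and others with at least 2-fold change, at most 12 in all. Single-gene results of 2 related genes that the rule covers are not reported here. Members and lists were chosen with earlier results of these data known. Figures were made with matplotlib 3.10.9.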

Additional observations from a re-analysis of the deposited data

How the results depend on the processing

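INSIG1 and STARD4 remained called higher in all alternatives, and the members higher numbered between 2 and 4. Leaving out 1 library at a time gave 2 to 3 members higher, 0 to 1 lower (SCD without GST-PTR1 library 2), 5 to 11 related genes lower (5 without GST-PTR1 library 4), and a median of the members from -0.1117 to 0.0342 (0.0342 without GST library 3). Members lower numbered 7 with library totals (DHCR7, ELOVL6, FDFT1, HSD17B7, MSMO1, MVK and TM7SF2), 1 with a filter of at least 1 count in any library (SCD), and 2 with the GC trend removed (HSD17B7 and MSMO1). PMVK was called higher with the GC trend removed (log2 fold change 0.39). The median of the members was -0.253 with library totals and 0.0233 with the GC trend removed. At 2-fold, 3 related genes were higher and 1 lower, and with library totals 19 were lower. In the 4 libraries numbered 4 or 5, the number as a replicate block gave 1603 genes higher and 1715 lower, against 1790 and 1848 without it, with 2 members higher in both, 1 lower with the block (SCD) and 2 lower without it (MSMO1 and SCD). The differences between these libraries had a correlation of -0.03 across genes between treatments. This value rests on few libraries and cannot tell whether libraries of the same number were prepared together.

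Members and INSIG2 with fold changes near 0 changed sign in some alternatives, without a call in either setting, and the cause was not tested. With library totals the log2 fold change was -0.1428 for ACAT2, -0.1216 for IDI1, -0.1330 for LSS, -0.0529 for CYP51A1, -0.0746 for NSDHL, -0.1374 for EBP and -0.0134 for NPC2. With the replicate block the log2 fold change was -0.0295 for ACAT2, -0.0523 for IDI1, 0.0328 for SREBF1, 0.0004 for SREBF2 and 0.0677 for FASN. In the same libraries without the block the log2 fold change was -0.0207 for ACAT2, -0.0413 for IDI1, 0.0266 for SREBF1, 0.0063 for SREBF2 and 0.0696 for FASN. With the GC trend removed the log2 fold change was 0.0268 for MVD, 0.0227 for SREBF1, 0.0369 for SCAP, 0.0233 for ACLY and 0.1844 for FASN. With at least 1 count in any library the log2 fold change was 0.0201 for SC5D and 0.0008 for ACLY. After thinning to the smallest total the log2 fold change was 0.0066 for SC5D and 0.0442 for INSIG2. Leaving out 1 library at a time gave ACAT2 -0.0687 to 0.1568, IDI1 -0.0616 to 0.1859, LSS -0.0555 to 0.1987, CYP51A1 -0.0029 to 0.2715, SC5D -0.1052 to 0.0616, SREBF1 -0.5020 to 0.3392, SREBF2 -0.3169 to 0.1275, SCAP -0.1583 to 0.0228, NPC1 -0.1418 to 0.0342, ACLY -0.1136 to 0.0753, FASN -0.2195 to 0.2335 and INSIG2 -0.2104 to 0.0293.

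With 3 libraries a treatment, precision was lowest for SREBF1, SCD, FASN and SREBF2, which have the widest 95% intervals among the members. Low levels rest on few reads, as in CH25H.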
